A study of Homo sapiens with 3 samples.

Results

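The genes described here are ZEB1, ZEB2, SNAI1, SNAI2, SNAI3, TWIST1, TWIST2, VIM, CDH2 and FN1, which encode transcription factors that drive the change of epithelial cells to a mesenchymal state and proteins made in the course of it. They were taken by name, but with earlier results of these data known. All 10 were found among 19974 protein-coding genes of chromosomes 1 to 22 and X. H3K4me3, the histone mark of promoters, and H3K27ac, the mark of active promoters and enhancers, had been mapped by chromatin immunoprecipitation and sequencing in HCC1599, a breast cancer cell line of the triple-negative type that the series describes as positive for a MARCO transcript, MARCO-TST. The labels name no treatment and no genetic change, and the groups were 1 H3K4me3 library, 1 H3K27ac library and 1 input library without antibody, whose reads were not analysed here. With 1 library per mark and no read counts, the depth and the spread between repeat libraries are unknown, differences could not be set against replicate error, and none was tested.

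Mesenchymal transition is a program in which epithelial cells lose their junctions and gain motility. The zinc finger proteins ZEB1, ZEB2, SNAI1 (Snail) and SNAI2 (Slug) bind E-box sequences and repress epithelial genes such as CDH1, while TWIST1 and TWIST2 are basic helix-loop-helix factors. SNAI3 is a less studied Snail relative. VIM encodes the intermediate filament protein vimentin, CDH2 encodes N-cadherin, and FN1 encodes the matrix protein fibronectin. In breast cancer the program is known from claudin-low and metaplastic tumours. H3K4me3 without H3K27ac at a promoter is commonly found where a gene is silent or weakly transcribed, but transcription was not measured here.

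Each deposited peak has a position and a score. The score has no stated unit, piles up at 3100 and is used here only to rank peaks within the list of 1 mark. The H3K4me3 list held 32043 usable peaks, whose width had a median of 1667 bp and whose score had a median of 590, and 33.9% of them scored 3100 or above. The H3K27ac list held 72894 peaks, with medians of 865 bp for width and 65 for score, and 3.71% of them scored 3100 or above. A mark was placed at a gene when a peak touched, with 1 bp or more, the window of 1 kb before and after a start in a RefSeq table of promoters. ZEB1, ZEB2, TWIST2, VIM, CDH2 and FN1 had starts in that table. For SNAI1, SNAI2, SNAI3 and TWIST1 both ends of the gene span were used instead, as for 4162 of the 19974 genes. Positions are in hg38, counted from 1. The cell type was checked on marker genes: 7 of 8 breast epithelial genes had both marks at a start and KRT8, the other one, had H3K27ac only, whereas 0 of 8 fibroblast, 0 of 4 endothelial and 0 of 4 leukocyte genes had both. Of the fibroblast genes 2 had H3K4me3 only, 2 had H3K27ac only and 4 had neither; CD14 was the only endothelial or leukocyte gene with a mark, H3K4me3.

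The 10 genes were marked about as often as other genes, but their H3K27ac ranked low: over the 6 genes with it at a start, its score stood between percentiles 1.77 and 41.2 and its width between 3.94 and 32.9 of all genes with that mark. H3K4me3 lay at the start of 8 of the 10 genes (70.0% of all protein-coding genes) and H3K27ac at the start of 6 (60.0%). ZEB1, SNAI1, SNAI2, SNAI3 and TWIST1 had both marks, which is 5 of 10 against 57.7% of all genes. This share was 60% over all genes with a listed start, and of the 6 such genes here only ZEB1 had both marks. Over all genes judged by both ends it was 49%, and the 4 such genes here all had both. VIM, CDH2 and FN1 had H3K4me3 only, 3 of 10 against 12.3%. TWIST2 had H3K27ac only, a state found in 2.27% of all genes, and ZEB2 had neither mark, a state found in 27.8%. An H3K27ac peak scoring at least 100 lay at 3 of the 10 starts, those of SNAI1, ZEB1 and TWIST1, against 51.9% of all genes. VIM stood just outside this count, because an H3K27ac peak with a score of 1075 began 1040 bp into the gene.

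**Figure D1:**
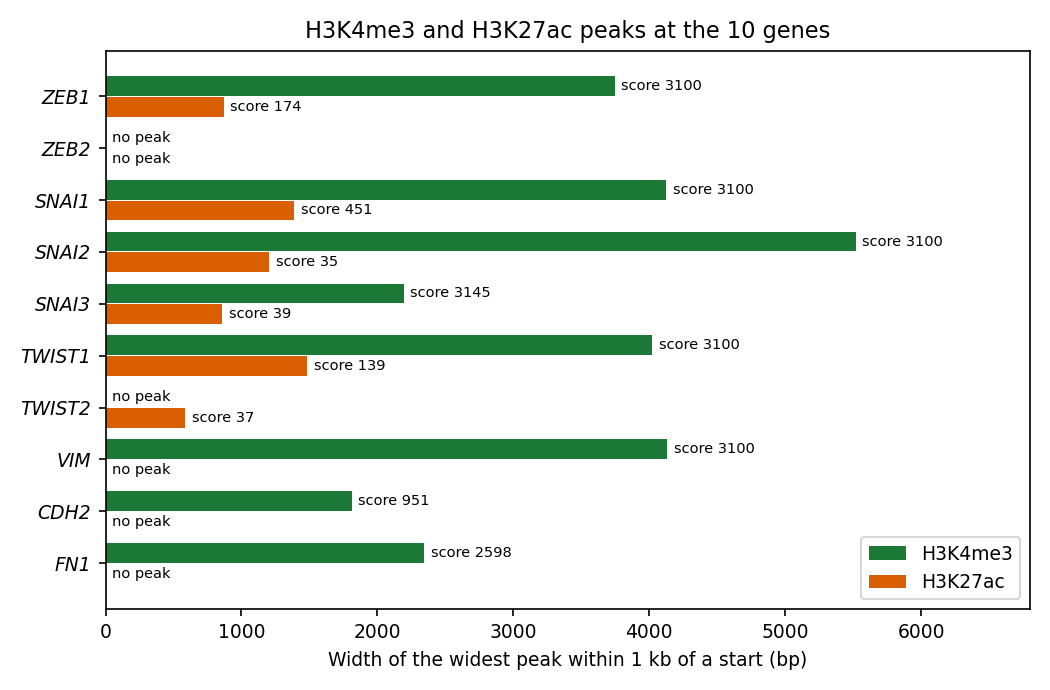
Width in bp of the widest H3K4me3 peak (green) and H3K27ac peak (orange) within 1 kb of a start of each of the 10 genes, with the score of the strongest such peak beside each bar. H3K4me3 ran from 1810 bp at CDH2 to 5519 bp at SNAI2 and was the wider mark wherever it was present, while H3K27ac ran from 587 bp at TWIST2 to 1483 bp at TWIST1.

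ZEB1, a zinc finger homeobox repressor of epithelial genes, lies at chr10:31318417-31529804. Its H3K4me3 peak, chr10:31317593-31321338, measured 3746 bp, scored 3100 and reached from 824 bp before the outermost listed start to 2921 bp after it. Its H3K27ac peak, chr10:31318167-31319035, measured 869 bp, scored 173.8 and covered only 23.2% of the H3K4me3 peak. RefSeq lists 7 starts for ZEB1. The H3K4me3 peak covered 6 of them and the H3K27ac peak covered 2, so that acetylation was called at the outer starts and not at the inner ones. No other peak of either mark lay in the 211388 bp of the gene or within 50 kb of it. Both ZEB1 peaks lay within 1 kb of a start or end of ZEB1-AS1, a long noncoding RNA gene, and a mark there cannot be assigned to one gene of the pair.

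The sequence before the starts is shown because ZEB and Snail proteins bind the E-box letters CAGGTG, or CACCTG on the other strand, and ZEB1 was the only one of the genes with a listed start whose windows held them. These are the 250 bases before the outermost ZEB1 start, chr10:31318167-31318416 on the plus strand, from RefSeq (GRCh38.p14), with the E-box letters in capitals. The window lies on both marks.
ZEB1 outermost start: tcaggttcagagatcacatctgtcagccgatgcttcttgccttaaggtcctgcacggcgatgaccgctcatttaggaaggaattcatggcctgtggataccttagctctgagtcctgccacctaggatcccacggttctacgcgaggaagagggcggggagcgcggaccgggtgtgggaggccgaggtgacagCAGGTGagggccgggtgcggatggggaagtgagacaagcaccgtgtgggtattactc
The outermost window held 1 copy, and the window before an inner start, at position 31319216, held 2 copies. That start lay on H3K4me3, beyond the end of the H3K27ac peak. The other 5 ZEB1 windows held none, and neither did the 6 windows of ZEB2, TWIST2, VIM, CDH2 and FN1. At least 1 copy was thus held by 2 of the 13 windows of these genes, against 17.1% of 22132 windows at protein-coding starts. ZEB1 had 7 of the 13 windows, and so more sequence in which a copy could occur than any of the others. A match is a match of letters and not a measured binding site.

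ZEB2, the close relative of ZEB1, lies at chr2:144384081-144520119 and is read toward lower coordinates. No peak of either mark lay within 1 kb of its listed start. H3K4me3 lay on either side instead. Inside the gene a peak of 778 bp with a score of 591.7, chr2:144517101-144517878, began 2241 bp after the start, and a peak of 448 bp with a score of 73.6 followed after a gap of 128 bp. Outside it a peak of 995 bp with a score of 94.8 lay 3530 bp before the start, near a start or end of LINC02993. The only H3K27ac peak within 50 kb of ZEB2 measured 499 bp, scored 38.6 and lay 4855 bp beyond the far end of the gene. With 2.5 kb either side of a start, ZEB2 counted as H3K4me3 only.

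**Figure D2:**
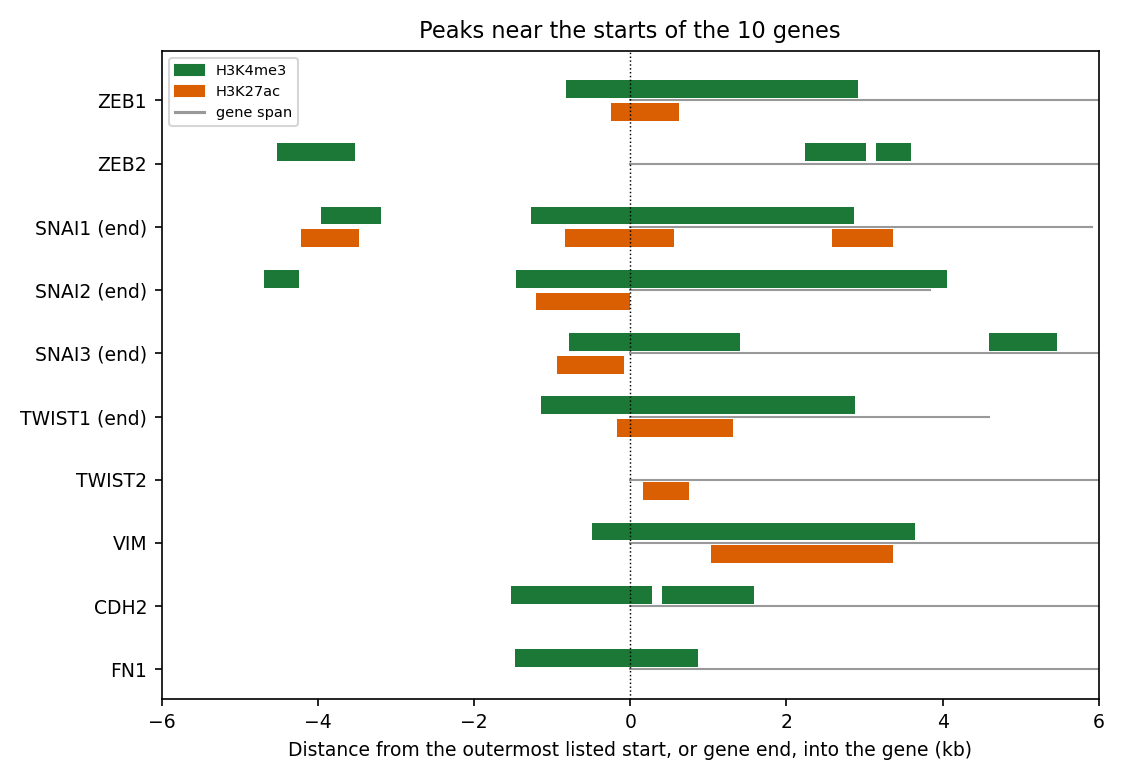
Peaks of H3K4me3 (green) and H3K27ac (orange) within 6 kb of the outermost listed start of each gene, drawn in the direction of reading, or, for genes marked (end), of the gene end nearest to its H3K27ac peak, drawn into the gene; grey lines are gene spans. ZEB2 has H3K4me3 on both sides of its start and none on it, and the VIM H3K27ac peak begins 1040 bp inside the gene.

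The Snail genes all had H3K4me3 scoring 3100 or above, together with H3K27ac of very different scores. SNAI1, at chr20:49982980-49988886, had an H3K4me3 peak of 4127 bp with a score of 3100 and an H3K27ac peak of 1390 bp with a score of 450.6, both over the lower-coordinate end of the gene. This was the highest H3K27ac score at a start among the 10 genes, at percentile 41.2 of all genes with H3K27ac there. A second H3K27ac peak in SNAI1, of 785 bp with a score of 40.3, overlapped the same H3K4me3 peak. SNAI2, at chr8:48917598-48921429, lay wholly inside an H3K4me3 peak of 5519 bp with a score of 3100, the widest of the set and at percentile 86.4 for width. Its H3K27ac peak was 1206 bp wide and scored 34.7, near the lowest score in the list, at percentile 1.77, and shared only 4 bp with the gene span, the rest lying outside the higher-coordinate end. Both SNAI2 peaks also lay within 1 kb of a start or end of LOC107986942. SNAI3, at chr16:88677688-88686507, had an H3K4me3 peak of 2193 bp with a score of 3145 over its higher-coordinate end. Its H3K27ac peak was 855 bp wide, scored 38.8 and began 85 bp outside that end. The SNAI2 and SNAI3 H3K27ac peaks both drop out when a score of at least 100 is required, which leaves these genes with H3K4me3 only.

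TWIST1, a factor of mesoderm and neural crest, lies at chr7:19113047-19117636. Its H3K4me3 peak of 4023 bp, with a score of 3100, covered the higher-coordinate end and 62.8% of the gene span. Its H3K27ac peak of 1483 bp, with a score of 138.9, lay inside the H3K4me3 peak at the same end and was the widest H3K27ac peak at a start among the 10 genes. Like ZEB1 and the Snail genes, TWIST1 thus had both marks, with H3K27ac over 36.9% of its H3K4me3 peak. A second and weaker H3K4me3 peak, of 840 bp with a score of 100.5, lay 5009 bp below the lower-coordinate end near a start or end of LOC124901597.

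TWIST2, its paralog at chr2:238848085-238910534, differed from TWIST1 in that H3K4me3 was called neither in the gene nor in its 50 kb flanks. Its only peak in the gene was an H3K27ac peak of 587 bp with a score of 37.1, chr2:238848250-238848836, from 165 to 751 bp after the start and within 1 kb of a start or end of LOC100287387. Genes with H3K27ac only had, over all protein-coding genes, medians of 65.3 for score and 1029.5 bp for width. With a score of at least 100 required, TWIST2 had neither mark. In the flanks there were 2 further H3K27ac peaks, of 595 and 596 bp, with scores of 31.5 and 31.4.

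Starts rich in CpG usually carry H3K4me3, so the sequence before the TWIST2 start is shown beside those of FN1, ZEB2 and VIM. Each is the 250 bases before the listed start from RefSeq (GRCh38.p14), with every CG in capitals: chr2:238847835-238848084 on the plus strand for TWIST2, chr2:215436069-215436318 on the minus strand for FN1, chr2:144520120-144520369 on the minus strand for ZEB2 and chr10:17227991-17228240 on the plus strand for VIM.
TWIST2: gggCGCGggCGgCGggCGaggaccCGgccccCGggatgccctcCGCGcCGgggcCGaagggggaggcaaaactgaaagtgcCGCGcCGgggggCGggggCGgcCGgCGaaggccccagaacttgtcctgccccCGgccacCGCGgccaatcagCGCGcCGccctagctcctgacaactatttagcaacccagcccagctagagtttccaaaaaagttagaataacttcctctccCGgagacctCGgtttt
FN1: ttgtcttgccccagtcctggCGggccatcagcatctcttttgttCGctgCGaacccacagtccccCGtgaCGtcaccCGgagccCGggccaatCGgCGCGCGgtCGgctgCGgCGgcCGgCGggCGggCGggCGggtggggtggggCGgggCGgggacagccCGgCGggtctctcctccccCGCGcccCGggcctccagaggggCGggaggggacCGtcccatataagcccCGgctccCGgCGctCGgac
ZEB2: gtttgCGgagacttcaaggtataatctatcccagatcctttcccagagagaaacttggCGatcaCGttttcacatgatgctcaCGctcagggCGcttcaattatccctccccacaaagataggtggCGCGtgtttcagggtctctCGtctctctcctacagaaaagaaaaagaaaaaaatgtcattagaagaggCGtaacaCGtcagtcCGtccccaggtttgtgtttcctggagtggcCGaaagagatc
VIM: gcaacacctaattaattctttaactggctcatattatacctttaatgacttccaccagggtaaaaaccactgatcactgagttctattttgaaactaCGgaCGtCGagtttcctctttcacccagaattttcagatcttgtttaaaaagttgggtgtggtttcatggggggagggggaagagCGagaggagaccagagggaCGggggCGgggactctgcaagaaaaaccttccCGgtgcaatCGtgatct
The TWIST2 window held 26 CG and the FN1 window 32, against a median of 16 over 22132 windows at protein-coding starts. The ZEB2 window held 12 and the VIM window 8. Of the protein-coding starts with at least as many CG as TWIST2, 95.8% had H3K4me3 within 1 kb. Among the windows of these genes 3 were that rich, and H3K4me3 was absent only at the one of TWIST2. The VIM window, with the fewest CG of the 4 shown, lay at an H3K4me3 peak with a score of 3100.

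The 3 effector genes had H3K4me3 over their starts and no H3K27ac within 1 kb of them. VIM, at chr10:17228241-17237593, had an H3K4me3 peak of 4134 bp with a score of 3100, from 485 bp before the start to 3648 bp after it. Its H3K27ac peak, chr10:17229281-17231606, had a width of 2326 bp and a score of 1075, and lay wholly on the H3K4me3 peak, from 1040 to 3365 bp after the start. It covered 56.3% of the H3K4me3 peak, near the median of 54.9% over all genes with H3K4me3 at a start; the 8 genes here with that mark had a median of 27.6%. Its state therefore depends on where H3K27ac is looked for: with 2.5 kb either side of the start, or with H3K27ac anywhere on the H3K4me3 peak counted, VIM had both marks. Both peaks also lay within 1 kb of a start or end of VIM-AS1, a noncoding gene.

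CDH2, at chr18:27932879-28177130 and read toward lower coordinates, had the weakest H3K4me3 of the marked genes. A peak of 1810 bp with a score of 950.7, chr18:28176847-28178656, covered the start from 1526 bp before it to 283 bp after it. A second one of 1177 bp with a score of 82.7 followed after a gap of 124 bp. No H3K27ac peak lay anywhere in its 244252 bp, and the 3 in the flanks scored 32.1, 32.2 and 39.4. A second start that RefSeq lists inside CDH2 had neither mark within 1 kb.

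FN1, at chr2:215360865-215436068 and also read toward lower coordinates, had an H3K4me3 peak of 2344 bp with a score of 2598, from 1475 bp before the start to 868 bp after it. The peak also lay within 1 kb of a start or end of FN1-DT, a noncoding gene. Inside FN1 there was 1 H3K27ac peak, of 491 bp with a score of 33.6 and 40148 bp from the start, and 1 more H3K4me3 peak, of 446 bp with a score of 54.0. CDH2 and FN1 kept the state of H3K4me3 only under each setting of window, score, merging and gene end that was tried.

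Where both marks were present, H3K4me3 was the wider one in 5 of 5 genes, as in 88.4% of all 11525 genes with both. It was 4.58 times as wide as H3K27ac at SNAI2, 4.31 times at ZEB1, 2.97 times at SNAI1, 2.71 times at TWIST1 and 2.56 times at SNAI3. The ratio was above 2 in 5 of 5 genes against 41.0% of the 11525, whose median was 1.79 with quartiles of 1.30 and 2.52. SNAI2 and ZEB1 stood at percentiles 95.9 and 94.8 of that range, SNAI1 at 83.4, TWIST1 at 78.7 and SNAI3 at 75.8. H3K27ac was narrow at all 5 genes, while H3K4me3 width varied. At SNAI2 H3K4me3 was wide, at percentile 86.4, with H3K27ac width at 23.9. The same percentiles were 58.2 and 12.3 at ZEB1 and 66.7 and 29.6 at SNAI1. They were 64.7 and 32.9 at TWIST1 and 19.9 and 11.8 at SNAI3. H3K27ac widths stood between percentiles 11.8 and 32.9 of all genes with that mark, and H3K4me3 widths of the same 5 genes between 19.9 and 86.4. All of the 5 but ZEB1 were judged by both gene ends. The genes they are set against include those with listed starts, and ratios and percentiles were not split by this.

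**Figure D3:**
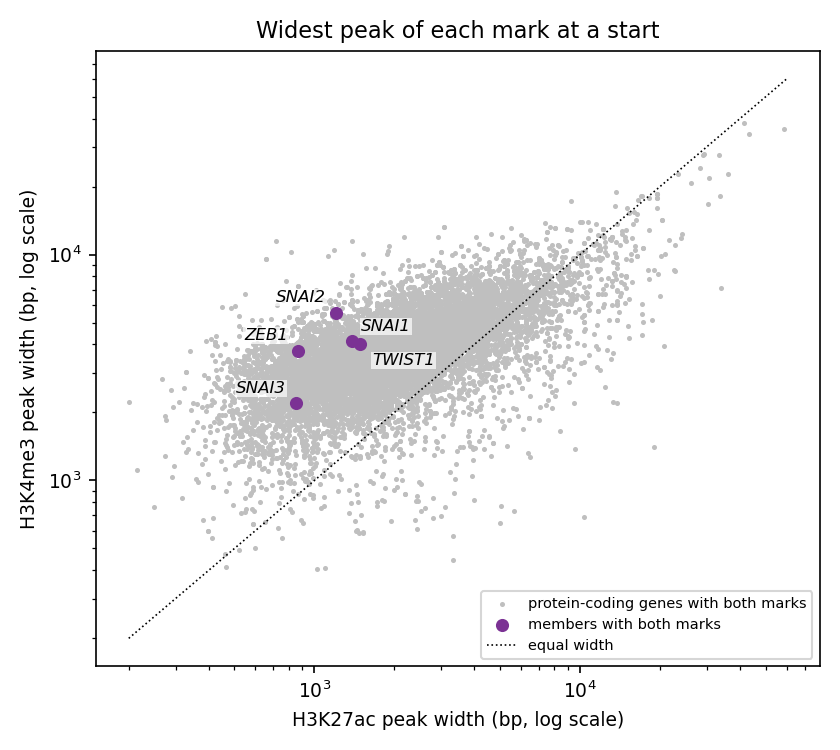
Width of the widest H3K27ac peak (x axis, bp, log scale) against that of the widest H3K4me3 peak (y axis, bp, log scale) at the starts of 11525 protein-coding genes with both marks (grey), with the 5 genes described here in purple and a dotted line of equal width. All 5 lie above the line, at ratios from 2.56 to 4.58.

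Scores on the strongest H3K4me3 peaks were compared next. Of the 10 genes, 6 had H3K4me3 scoring 3100 or above, namely ZEB1, SNAI1, SNAI2, SNAI3, TWIST1 and VIM, and 10781 protein-coding genes did. The highest H3K27ac score anywhere on that H3K4me3 peak was below 500 in 5 of the 6, against 40.5% of the 10781 genes, 5.75% of which had no H3K27ac on it at all. SNAI2 with 34.7 and SNAI3 with 38.8 ranked at or above only 6.26% and 6.89% of those genes. TWIST1 with 138.9 and ZEB1 with 173.8 reached 16.5% and 19.5%, and SNAI1 with 450.6 reached 37.8%. VIM with 1075 reached 61.3% and was the only one above the median of 713.8. The limits of 500 and of 2 times the width were set after these values were seen.

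**Figure D4:**
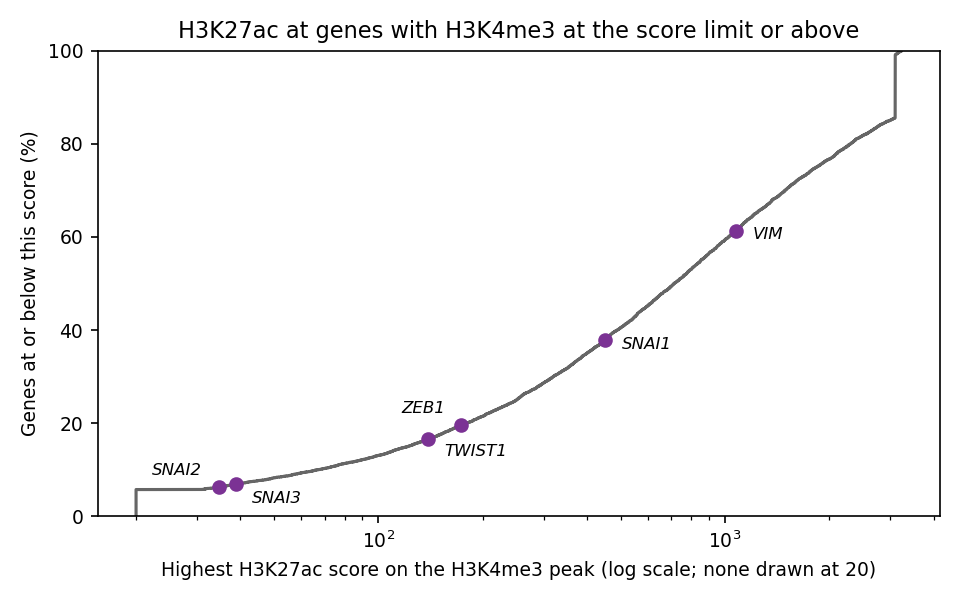
Percentage of 10781 protein-coding genes with H3K4me3 at a score of 3100 or above (y axis) whose strongest H3K27ac peak on the H3K4me3 peak scored at or below the value on the x axis (log scale; genes with none are drawn at the left edge). The 6 genes described here are purple points, of which VIM lies above the median and the other 5 below it.

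Away from the starts, H3K27ac was sparse in the long genes. ZEB1, ZEB2 and CDH2, of at least 100 kb each, together span 591.7 kb and held 0 H3K27ac peaks away from their starts. Such a gene body without H3K27ac was found in 11.5% of 3351 protein-coding genes of at least 100 kb. The comparison was chosen after the values were seen, and the genes differ in length within it. Of the next longest genes, FN1, of 75204 bp, held 1 such peak, with a score of 33.6, and TWIST2, of 62450 bp, held none.

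Over the gene spans and 50 kb either side there were 23 H3K4me3 peaks and 40 H3K27ac peaks. H3K4me3 covered more sequence than H3K27ac at 7 of the 10 genes, against 43.6% of all genes. The exceptions were SNAI1, with 9348 bp under H3K4me3 and 17382 bp under H3K27ac, VIM, with 7211 and 9756 bp, and TWIST2, with 0 and 1778 bp. SNAI2 had 7241 bp against 1206 bp and ZEB2 had 2221 bp against 499 bp. ZEB1 had 3746 bp against 869 bp and SNAI3 had 10438 bp against 5390 bp. Some of these sums take in peaks at starts of neighbouring genes. At SNAI3 they include H3K4me3 peaks of 3358 bp at MVD and 4013 bp at RNF166 and CTU2, with H3K27ac peaks of 1955 and 937 bp. At SNAI1 they include RNF114 peaks of 4455 bp for H3K4me3 and 5199 bp for H3K27ac. Within the gene span alone, H3K4me3 covered more at 9 of the 10 genes. The share of all genes was not counted for spans alone, so this count has nothing to be judged against. Of the 40 H3K27ac peaks, 26 overlapped no H3K4me3 peak, with medians of 591 bp for width and 39.7 for score. The 47559 such peaks of the whole list had medians of 648 bp and 46.5. Per gene the number was 0 at ZEB1 and SNAI2, 1 at ZEB2, 2 at TWIST1, 3 at SNAI3, TWIST2 and CDH2, 4 at VIM and FN1, and 6 at SNAI1, against a median of 3 over all genes.

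A strong H3K27ac peak without H3K4me3 lay near SNAI1. Of the 26 peaks 4 scored at least 100, against 21.3% of the whole list's peaks without H3K4me3, and they lay at SNAI1 and VIM. The SNAI1 peak, chr20:50018130-50021615, measured 3486 bp, scored 1042 and lay 29244 bp beyond the higher-coordinate end of the gene. It stood at percentile 98.1 for score and 97.8 for width among the 47559. A peak of 2229 bp with a score of 36.1 lay 343 bp from it, and neither was within 1 kb of a start or end of another gene. The 3 in the flanks of VIM scored 126.3, 133.3 and 148.0 and lay 12152 to 46184 bp from the gene. No peak list links such a site to a gene, and a target other than SNAI1 or VIM was not tested.

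Other genes in the flanks show what the same stretches of chromosome carried. A start of another protein-coding gene lay within 50 kb of 5 of the 10 genes. There were 9 such neighbours, of which 6 had both marks, against 57.7% of all protein-coding genes. Near SNAI1, RNF114 had an H3K27ac peak of 5199 bp with a score of 2089, against 1390 bp and 450.6 at SNAI1. Near FN1, ATIC, a purine synthesis gene, had H3K27ac of 2941 bp with a score of 1824, against no peak at the FN1 start. Near VIM, TRDMT1 had a score of 843.2 at its start, where VIM had no peak within 1 kb of its own. The VIM peak with a score of 1075 began 1040 bp into the gene. Near SNAI3, MVD, of the mevalonate pathway, had 120.3, and RNF166 and CTU2, which share peaks, had 77.4, against 38.8 at SNAI3. All 6 neighbours with both marks had H3K4me3 scores of 3100. IL17C, CYBA and FERD3L had neither mark.

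The comparison with related genes used lists chosen with earlier results of these data known, and no test of their difference is possible with 1 library per mark. Of 20 other genes of mesenchymal transition, 13 had both marks (57.7% of all protein-coding genes) and 6 had H3K4me3 only (12.3%). H3K27ac only was found in 0 of them (2.27%) and neither mark in 1 (27.8%). Their median H3K27ac score over the 13 was 423.3 and their median width ratio 1.44, against 138.9 and 2.97 over the 5 genes above and 663.6 and 1.79 over all genes with both marks. TCF3 and TCF4, which encode E-proteins that pair with TWIST factors, had H3K27ac scores of 1042 and 423.3, and the homeobox gene PRRX1 and the forkhead gene FOXC2 had H3K4me3 only. Corepressor genes, whose products ZEB and Snail factors recruit, had both marks in 8 of 8, with H3K27ac scores of 3100 at CTBP1 and CTBP2, 441.7 at HDAC1 and 1420 at HDAC2.

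Epithelial genes, many of them known targets or opponents of these repressors, stood at the other end. Of 20 entries 19 had both marks, against 57.7% of all protein-coding genes, and 1 had H3K27ac only. Their median H3K27ac score was 3100 and their median width ratio 0.88. CDH1, the E-cadherin gene, carried H3K4me3 over 5703 bp and H3K27ac over 10774 bp, where CDH2 had 1810 bp and none. CRB3, a polarity gene, had 2783 and 1325 bp, EPCAM 7024 and 5987 bp, and CLDN3, a claudin gene, 5121 and 6791 bp. H3K4me3 was the wider mark in 8 of the 19 epithelial entries with both. The 5 microRNA entries are not protein-coding genes, but they are part of these counts and medians. They are not independent, since MIR200A shares its peaks with MIR200B and MIR200C with MIR141. MIR429 was the entry with H3K27ac only.

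**Figure D5:**
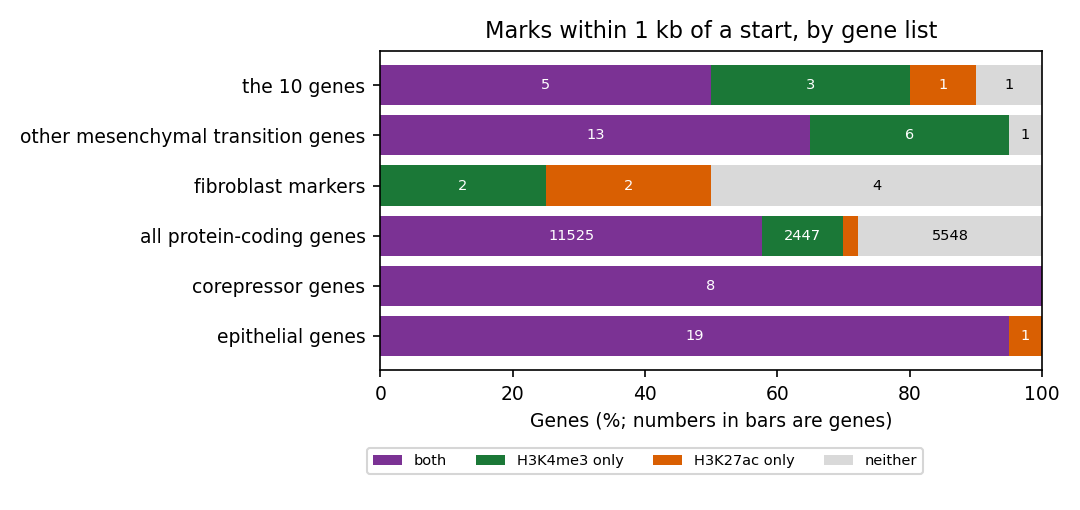
Share of genes in percent (x axis) with both marks (purple), H3K4me3 only (green), H3K27ac only (orange) or neither (grey) within 1 kb of a start, for the 10 genes, 4 other lists and all 19974 protein-coding genes; numbers in the bars are genes, left out of segments too small to hold one. The 10 genes have both marks in 5 cases, and the epithelial list in 19 of 20.

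The miR-200 family is shown because its 5 microRNAs are known to act on the ZEB1 and ZEB2 messages and to be repressed by the ZEB proteins in turn. Mature sequences from RefSeq (GRCh38.p14) are given with the seed, bases 2 to 8, in capitals. The first 3 share the seed AAUACUG and the other 2 the seed AACACUG, and all 5 are on plus strands: miR-200b-3p at chr1:1167160-1167181, miR-429 at chr1:1169055-1169076, miR-200c-3p at chr12:6963742-6963764, miR-200a-3p at chr1:1167916-1167937 and miR-141-3p at chr12:6964155-6964176.
hsa-miR-200b-3p: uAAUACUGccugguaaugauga
hsa-miR-429: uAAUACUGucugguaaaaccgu
hsa-miR-200c-3p: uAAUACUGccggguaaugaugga
hsa-miR-200a-3p: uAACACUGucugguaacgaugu
hsa-miR-141-3p: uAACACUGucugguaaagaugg
On chromosome 12 both microRNAs lay inside an H3K4me3 peak of 4853 bp and an H3K27ac peak of 5565 bp. On chromosome 1 an H3K27ac peak of 7185 bp held miR-200b-3p and miR-200a-3p and ended 290 bp before miR-429, and an H3K4me3 peak of 5058 bp ended 174 bp before miR-200b-3p. Each of these 4 peaks scored 3100. At ZEB1 the H3K27ac peak of 869 bp scored 173.8, and at ZEB2 there was none within 1 kb of the start. Levels of the microRNAs and of the ZEB messages were not measured.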

How the data were processed

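H3K4me3 and H3K27ac peaks of HCC1599 were analysed as the authors deposited them, 1 list per mark with a position and a score for each peak; the score has no stated unit. Per the submitters' processing notes, Bowtie2, MACS 1.4 and hg38 were used; parameters, and the Bowtie2 version, are not given in the sources used here. Fragmentation was by sonication and micrococcal nuclease after formaldehyde treatment, per the labels' protocols; peak edges, and so widths, can shift with fragment size and with the joining of nearby peaks. Gene spans, starts and sequences came from RefSeq tables of GRCh38.p14. The table of starts does not list every transcript.

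A mark was placed at a start by a peak within 1 kb, with at least 1 bp of overlap. A gene with peaks of 1 mark at several starts was given the widest width and the highest score. Percentiles count ties by their midpoint and are set against protein-coding genes with the mark there. Sequence windows were the 250 bases before a start, searched on both strands. All 10 genes were named, with neighbours and other lists by count and up to 4 genes in list order; KRT8, CD14 and MIR429 were named after their values were seen. The members, lists and thresholds were chosen with earlier results of these data known. The design gives no test. As a check of the code, simulated peaks were centred within 1 kb of 200 starts, and 200 of 200 were recovered. Such peaks touch the window by design, so this does not measure false or missed calls. Overlaps differed from bedtools 2.31.1 by 0. Python 3.11.15, numpy 2.4.6 and pandas 2.3.3 were used.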

Additional observations from a re-analysis of the deposited data

How the results depend on the processing

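The counts of genes with H3K4me3 at the start (8 to 9), with H3K4me3 there wider than H3K27ac or alone (8 to 9) and with more H3K4me3 than H3K27ac in the locus (6 to 9) stayed within 1.5 times of the reported counts under each alternative run. Requiring a score of at least 100 in both lists lowered the genes with H3K27ac at the start from 6 to 3. The weak peaks of SNAI2, SNAI3 and TWIST2 dropped out. Over all protein-coding genes the share with H3K27ac at the start fell from 60.0% to 51.9%. Genes with both marks went from 5 to 3 at that score. The 26 H3K27ac peaks without H3K4me3 became 4 at that score, 56 with flanks of 100 kb, 10 with flanks of 25 kb and 2 within the gene spans alone. Windows of 500 bp or 2.5 kb, either gene end, merging of peaks under 500 bp apart and 50% coverage moved no count by more than 1.5 times, nor did the outermost start alone or H3K27ac anywhere on the H3K4me3 peak, both added after seeing the data. With 2.5 kb windows, H3K4me3 lay at 9 of the 10 genes, against 71.7% of all protein-coding genes. H3K27ac lay at 7, against 63%, and both marks at 6, against 59.7%. The other counts under alternative settings have no share over all genes beside them. No paired analysis was possible because each mark has 1 library. Read depth and local copy number are unknown, so a start without a peak is one where none was called.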
